A study of Homo sapiens with 6 samples.

Results

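The genes described here are 9 transcription factors that set and maintain the myeloid lineage: SPI1, CEBPA, CEBPB, CEBPD, MAF, KLF2, KLF4, KLF6 and RUNX1. They were chosen by gene symbol, by no rule on measured values, but with earlier results of these data known. Each matched 1 of the 63241 gene rows of the deposited table. They were measured by poly(A) RNA sequencing of macrophages derived from THP-1, an established human monocytic leukaemia cell line, so all 6 libraries come from 1 cell line. One group of 3 libraries, siNC, came from wild-type cells transfected with a negative control siRNA, and the other 3, siDUSP6, from cells transfected with an siRNA against DUSP6; both were labelled with a time of 24 h. DUSP6 encodes a cytoplasmic phosphatase that inactivates ERK1 and ERK2, and the series title places the comparison in work on macrophage polarization through DUSP6 and ERK. The agent that turned THP-1 cells into macrophages is not given in the labels, and they do not say whether the replicates are separate cultures. The p-values therefore reflect library-to-library spread, which may be purely technical.

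Myeloid identity is built by a small set of DNA-binding proteins that act together. PU.1, the product of SPI1, is an ETS factor that opens myeloid enhancers, where RUNX1 and the C/EBP leucine zipper proteins bind beside it; C/EBP alpha (CEBPA) is needed to form granulocyte and monocyte progenitors, while C/EBP beta (CEBPB) and C/EBP delta (CEBPD) are induced in mature macrophages by inflammatory signals. The Krüppel-like zinc finger proteins KLF2 and KLF4 and the leucine zipper protein c-Maf (MAF) are known from mouse macrophages for restraining inflammatory gene expression or favouring alternative activation and IL-10, whereas KLF6 is known as a co-activator of NF-kB in inflammatory macrophages.

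Values are TPM, a measure scaled for transcript length and library total. They carry no information on read depth, which is unknown here, and no counting interval is given. DUSP6 was 359 to 378 TPM in siNC and 218 to 227 TPM in siDUSP6 (log2 fold change -0.73, SE 0.0267, limma adjusted p = 8.667e-05). For siDUSP6 replicates 2 and 3 the treatment label gives DUSP7 and DUSP8, against DUSP6 in their genotype, title and library name. In siDUSP6 replicate 1, whose fields do not conflict, DUSP6 was 227 TPM. DUSP7 was 37.2 to 39.6 TPM over the 3 siDUSP6 libraries and 47.1 to 50.05 TPM over the siNC libraries (limma adjusted p = 0.0111). DUSP8 was 1.51 to 1.62 TPM in siDUSP6 and 1.40 to 2.11 TPM in siNC, and the groups overlapped (limma adjusted p = 0.719). All 10 macrophage markers had a mean of at least 1 TPM, from 13.5 TPM for LYZ to 2336 TPM for FCER1G. Their summed level was 4021 to 4120 TPM in siNC and 3936 to 4020 TPM in siDUSP6. CD3D, CD3G and CD2 of the T cell markers, MS4A1 of the B cell markers, ALAS2 of the erythroid markers, COL3A1 of the stromal markers and EPCAM of the epithelial markers were listed at 0 in every library. Of the other cell type lists, the highest sums were those of megakaryocyte markers (134 to 141 TPM, of which PPBP alone averaged 138 TPM), endothelial markers (123 to 142 TPM, of which PECAM1 averaged 128 TPM) and T cell markers (63.6 to 66.0 TPM in siNC and 53.1 to 58.3 TPM in siDUSP6, of which TRAC averaged 60.5 TPM). Their part in the results below was not tested. In these bulk samples fewer cells with a transcript and less of it per cell cannot be told apart.

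Among the 9 factors, 1 C/EBP gene, CEBPB, passed the limma test, and most of the measured differences were small. CEBPB rose by 12.4% in mean TPM in siDUSP6. It was the only 1 of the 8 members tested that passed across all genes (limma adjusted p = 0.0398), and 0 fell. The CEBPB call was lost with any 1 library left out (limma adjusted p = 0.0631 to 0.1265) and was kept in 7 of 17 alternatives. Among all 14602 genes tested, 3.86% passed, 2.37% higher and 1.49% lower. KLF6 and CEBPD were higher and KLF4, MAF and CEBPA lower in all 3 siDUSP6 libraries than in any siNC library, without passing the test. The groups did not overlap for these 5 and CEBPB, 3 higher and 3 lower, and for 25.1% of all genes tested, 10.2% higher and 14.9% lower. SPI1 and RUNX1 overlapped between the groups. KLF2 was under the filter of 1 TPM on average and was not tested. At an unadjusted p under 0.05, 3 members were higher and 2 lower, against 19.2% of all genes in either direction. The median log2 fold change of the 8 members was 0.01 and that of all tested genes -0.03.

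**Figure D1:**
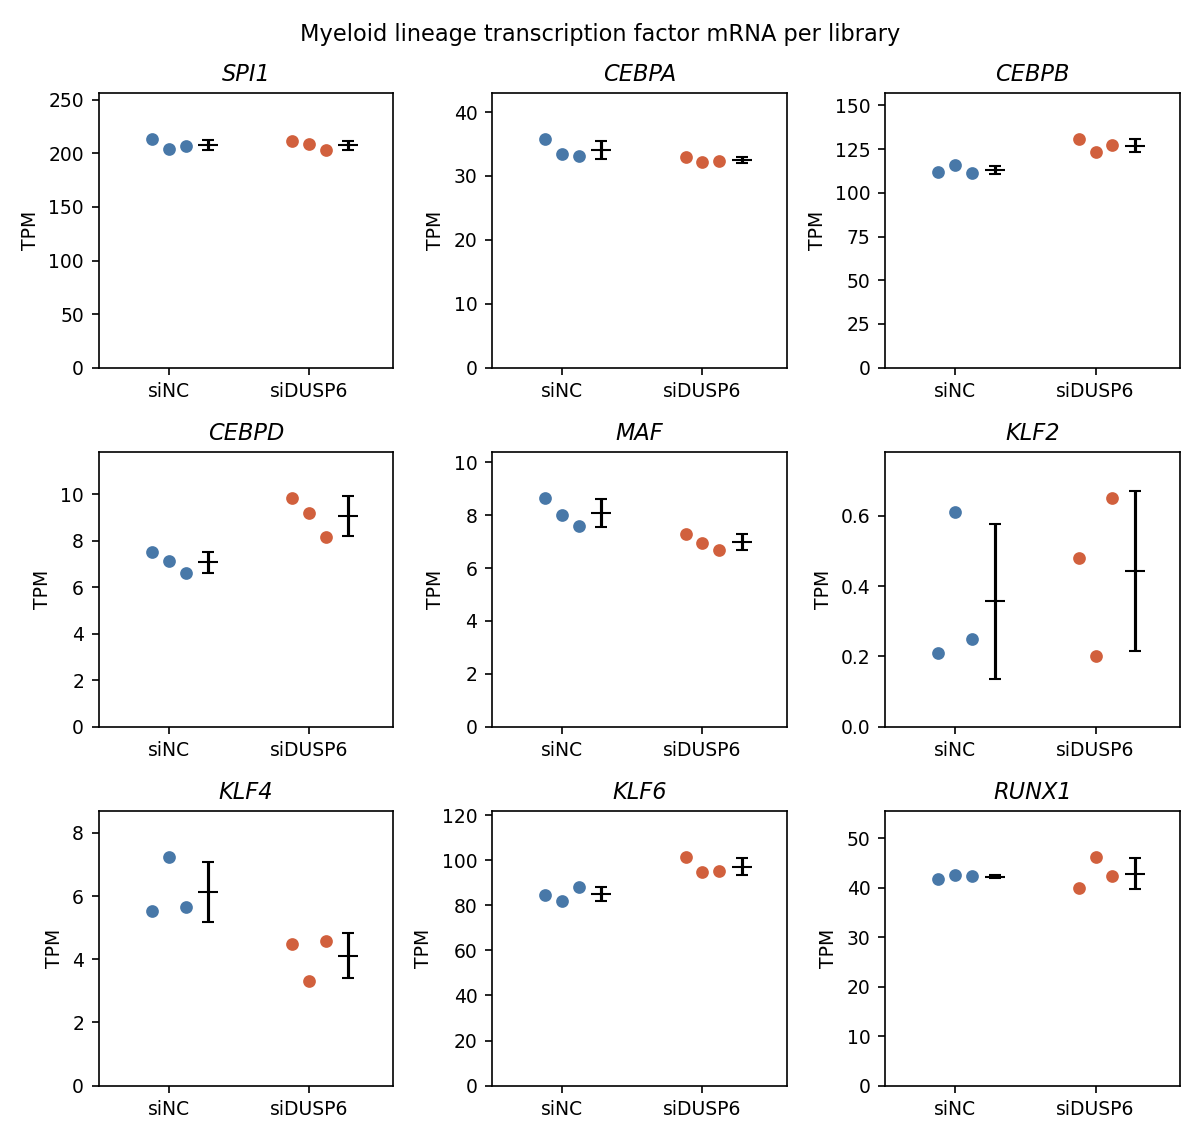
Each panel plots the TPM of 1 of the 9 genes, from 0, in the 3 siNC (blue) and 3 siDUSP6 (orange) libraries, with the group mean and SD beside the points. CEBPB, CEBPD and KLF6 lie higher and KLF4, MAF and CEBPA lower in siDUSP6 without overlap, SPI1 and RUNX1 overlap, and KLF2 stays under 0.7 TPM.

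In siNC the order of levels, which TPM allow because they are per length, was SPI1, CEBPB, KLF6, RUNX1, CEBPA, MAF, CEBPD, KLF4 and KLF2. The place of CEBPA is uncertain, because an antisense gene of similar level overlaps it, as described below. The ranges of neighbours in this order did not overlap in siNC, except for CEBPD (6.62 to 7.52 TPM) and KLF4 (5.53 to 7.23 TPM). SPI1 ranked 714th and CEBPB 1244th by mean TPM among the 14602 genes tested, and KLF4 ranked 10159th. In siDUSP6 CEBPD, at 8.14 to 9.83 TPM, lay above MAF, at 6.69 to 7.29 TPM.

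Sequence upstream of the transcription start is printed for CEBPB, KLF6, MAF and KLF4. These are the members with an unadjusted p under 0.05 that have a window in the promoter table used, and of the 4 CEBPB alone passed the adjusted test. Windows are from RefSeq on GRCh38.p14, 5′ to 3′ on the gene's strand, ending 1 base before the start, or before the most upstream GENCODE release 29 coding transcript in KLF6, which leaves 178 bases there and 250 in the others. In that annotation the CEBPB window lies in an intron of CEBPB-AS1, and the KLF4 window in an intron of a longer KLF4 transcript. Capitals mark every match, on either strand, to 8 searched motifs. Those of the basal promoter were the GC box, GGGCGG, the box named CCAAT, and the TATA box, spelled TATAAA. A half-site of the cyclic AMP response element was TGACG, and the AP-1 site was TGANTCA. The PU.1 core was searched as GAGGAA, the core bound by RUNX proteins as TGTGGT, and the C/EBP site as TTGCNNAA.
CEBPB (chr20:50190333-50190582, plus strand): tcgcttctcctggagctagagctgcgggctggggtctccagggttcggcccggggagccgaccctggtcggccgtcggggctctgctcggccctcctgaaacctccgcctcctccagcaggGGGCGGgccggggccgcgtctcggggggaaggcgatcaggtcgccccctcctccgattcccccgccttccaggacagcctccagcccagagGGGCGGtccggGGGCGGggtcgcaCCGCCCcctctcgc
KLF6 (chr10:3785282-3785459, minus strand): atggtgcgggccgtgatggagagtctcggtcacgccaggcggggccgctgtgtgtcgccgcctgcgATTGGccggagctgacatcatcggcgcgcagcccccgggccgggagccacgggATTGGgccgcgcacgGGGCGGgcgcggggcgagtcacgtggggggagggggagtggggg
MAF (chr16:79600738-79600987, minus strand): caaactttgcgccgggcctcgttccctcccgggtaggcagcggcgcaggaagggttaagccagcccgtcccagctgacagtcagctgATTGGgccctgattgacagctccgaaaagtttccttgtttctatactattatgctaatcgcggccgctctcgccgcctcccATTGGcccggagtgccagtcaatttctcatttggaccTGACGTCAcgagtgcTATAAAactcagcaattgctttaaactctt
KLF4 (chr9:107489770-107490019, minus strand): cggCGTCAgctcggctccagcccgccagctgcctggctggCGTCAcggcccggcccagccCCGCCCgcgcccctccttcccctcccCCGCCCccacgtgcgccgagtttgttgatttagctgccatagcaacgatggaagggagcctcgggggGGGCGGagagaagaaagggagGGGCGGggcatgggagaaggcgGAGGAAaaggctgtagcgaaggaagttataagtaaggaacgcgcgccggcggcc

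The CEBPB window held 4 GC boxes and none of the other 7 motifs, and 75.6% of its bases were G or C against a median of 58.0% over all windows of that length. The KLF6 window held 1 GC box and 2 CCAAT boxes (read as ATTGG on this strand) with a GC content of 76.4%. The MAF window held no GC box, 2 CCAAT boxes, 1 TATA box and 2 half-sites that overlap as the palindrome TGACGTCA, with a GC content of 54.4%. The KLF4 window held 4 GC boxes, 2 half-sites (read as CGTCA) and 1 PU.1 core. Among all 35116 windows of the table cut to 250 bases, 42.6% held a GC box, 32.0% a CCAAT box, 10.7% a TATA box, 21.2% the half-site, 23.6% the PU.1 core, 11% the RUNX core, 9.05% the C/EBP site and 6.57% the AP-1 site. Cut to 178 bases, as for KLF6, 30.9% held a GC box and 23.4% a CCAAT box. CEBPB, KLF6 and KLF4 each held a GC box, and MAF held none. A match is a run of letters and not evidence of binding.

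SPI1, which encodes PU.1, was the most abundant of the 9 and the steadiest. It measured 213, 204 and 207 TPM in siNC replicates 1 to 3 and 211, 208 and 203 TPM in siDUSP6 replicates 1 to 3. The groups overlapped throughout. The log2 fold change was -0.0043 (SE 0.0266, limma adjusted p = 0.954), with a 95% interval of 0.954-fold to 1.04-fold. Its sign turned under other settings, over a range of -0.0256 to 0.0211. The gene occupies chr11:47354860-47378576 (minus strand, GRCh38). Its ETS relatives SPIB and SPIC were under 1 TPM, and SPIC was listed at 0 in every library.

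RUNX1, the DNA-binding subunit of core binding factor, measured 41.8, 42.6 and 42.3 TPM in siNC and 40.0, 46.2 and 42.3 TPM in siDUSP6. The siDUSP6 libraries included both the lowest and the highest value. The log2 fold change was 0.02 (SE 0.0546, limma adjusted p = 0.9046; 95% interval 0.925-fold to 1.11-fold), and it was -0.04 without siDUSP6 replicate 2. RUNX1 occupies chr21:34787801-36004667 (minus strand).

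CBFB, the partner subunit that does not itself bind DNA and that stabilizes RUNX proteins on it, fell. It went from 84.7 ± 1.27 to 69.2 ± 2.71 TPM (SD, n = 3 each), a change of -18.3% in mean TPM (log2 fold change -0.29 with an SE of 0.0362, limma adjusted p = 0.009603). The highest siDUSP6 library, at 72.1 TPM, lay below the lowest siNC library, at 83.7 TPM. The call held in all 6 fits without 1 library (adjusted p = 0.0181 to 0.0472), and in 14 of 17 alternatives. It was lost without the variance trend (adjusted p = 0.0639), with the replicate number as a block (0.0764) and without siDUSP6 replicates 2 and 3 together (0.143).

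RUNX3, the other abundant RUNX gene, measured 41.1 to 41.9 TPM in siNC and 44.4 to 47.6 TPM in siDUSP6 without overlap (log2 fold change 0.14, SE 0.0378, limma adjusted p = 0.09836). RUNX2, best known from bone, measured 7.86 ± 0.181 and 8.46 ± 0.493 TPM (adjusted p = 0.513 in limma). RUNX1 and RUNX3 held 46.2% and 45.2% of the summed RUNX TPM in siNC. The sum of RUNX1, RUNX2 and RUNX3 was 91.5 ± 0.598 TPM in siNC and 97.1 ± 3.16 TPM in siDUSP6, without overlap (exact two-sided permutation test, p = 0.1, the smallest that 3 against 3 libraries allow; 0.15 adjusted over 3 family sums). The corepressor gene CBFA2T3 was uneven in siNC, at 5.57, 4.49 and 1.15 TPM, against 1.18 to 1.39 TPM in siDUSP6 (limma adjusted p = 0.2955); without siNC replicate 3 it passed the test (adjusted p = 0.0143). CBFA2T2 measured 5.6 ± 0.112 and 5.29 ± 0.571 TPM, and RUNX1T1 was under the filter.

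CEBPB, a C/EBP factor induced by inflammatory signals, was the 1 member called higher. It measured 112, 116 and 111 TPM in siNC and 131, 123 and 127 TPM in siDUSP6. The lowest siDUSP6 library stood above the highest siNC library. The log2 fold change was 0.17 (SE 0.0319, limma adjusted p = 0.0398), with a 95% interval of 1.07-fold to 1.18-fold. Leaving out any 1 of the 6 libraries ended the call (adjusted p = 0.0631 to 0.1265), while the log2 fold change stayed between 0.15 and 0.19. It was kept in 7 of 17 alternatives, with adjusted p from 0.02302 to 0.2222 over all 17. In siDUSP6 replicate 1 alone against siNC the log2 fold change was 0.21 (adjusted p = 0.2222). CEBPB is a gene of 1 exon at chr20:50190734-50192689 (plus strand), of which 39.1% is overlapped on the other strand by CEBPB-AS1. The antisense gene measured 1.12 ± 0.150 TPM in siNC and 0.827 ± 0.0808 TPM in siDUSP6, lay under the filter and was not tested. The libraries were stranded, but whether the counting used strand is not given in the sources used here.

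CEBPD, an acute-phase factor, measured 7.52, 7.11 and 6.62 TPM in siNC and 9.83, 9.19 and 8.14 TPM in siDUSP6. All 3 siDUSP6 libraries were above all siNC libraries. Its mean difference was 27.8%, wider than that of CEBPB, at a far lower level. It did not pass the test (log2 fold change 0.31, SE 0.0870, limma adjusted p = 0.1122), nor under any of 17 alternatives (adjusted p = 0.0715 to 0.2827). CEBPD, also 1 exon, occupies chr8:47736909-47739086 (minus strand).

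CEBPA, the progenitor-stage factor, measured 35.8, 33.5 and 33.1 TPM in siNC and 33.0, 32.2 and 32.3 TPM in siDUSP6. The groups did not overlap, but siNC replicate 3 and siDUSP6 replicate 1 lay next to each other. The log2 fold change was -0.07 (SE 0.0424, limma adjusted p = 0.4449; 95% interval 0.889-fold to 1.02-fold). CEBPA, 1 exon at chr19:33299934-33302564 (minus strand), is uncertain here. An unnamed antisense gene, ENSG00000267580, covers 46.9% of it and measured 40.3 ± 2.45 TPM in siNC and 32.0 ± 5.42 TPM in siDUSP6 (limma adjusted p = 0.1945), which is as high as CEBPA itself. Reads of the 2 genes cannot be told apart unless strand was used.

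DDIT3, also called CHOP, a C/EBP-related stress factor that dimerizes with C/EBP proteins and keeps them off their usual sites, rose from 92.5 ± 1.09 TPM in siNC to 102 ± 1.15 TPM in siDUSP6 (log2 fold change 0.14 with an SE of 0.0251, limma adjusted p = 0.03637). Leaving out any 1 library ended that call (adjusted p = 0.0871 to 0.122). CEBPG, a short C/EBP protein, measured 17.8 ± 0.430 and 16.5 ± 0.502 TPM (limma adjusted p = 0.3047). CEBPZ, which shares the name but not the leucine zipper, measured 40.7 ± 1.91 and 41.5 ± 2.24 TPM (limma adjusted p = 0.8397). The granulocyte factor CEBPE averaged 0.928 TPM and was not tested. Of these 4 relatives 3 were tested, and 1 rose and 0 fell (3.86% of all genes tested passed), with a median log2 fold change of 0.03.

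CEBPB and DDIT3 together made up most of the C/EBP mRNA, at 42.6% and 34.8% of the summed TPM of 6 genes in siNC. CEBPB held 44.1% and CEBPA 11.3% in siDUSP6, against 12.9% for CEBPA in siNC. The sum, without CEBPZ, was 265 ± 2.13 TPM in siNC and 288 ± 5.66 TPM in siDUSP6, 8.35% higher and without overlap (exact permutation p = 0.1, adjusted 0.15). Within a library the ratio of CEBPB to CEBPA was 3.13, 3.46 and 3.36 in siNC and 3.97, 3.83 and 3.93 in siDUSP6. Every siDUSP6 library had the higher ratio, a log2 difference of 0.24 (exact two-sided permutation p = 0.1, the smallest possible; 0.2 adjusted over 6 ratios). The ratio of CEBPA to SPI1 was 0.160 to 0.168 in siNC and 0.154 to 0.160 in siDUSP6, without overlap (log2 difference -0.07, exact permutation p = 0.1, adjusted 0.2). Ratios within a library do not depend on how libraries are scaled, but those with CEBPA carry its uncertainty.

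KLF6, the NF-kB co-activator, stood just short of the threshold. It measured 84.4, 82.0 and 88.2 TPM in siNC and 101, 94.7 and 95.1 TPM in siDUSP6. All siDUSP6 libraries were above all siNC libraries. The mean was 14.4% higher (log2 fold change 0.19, SE 0.0407, limma adjusted p = 0.05733; 95% interval 1.07-fold to 1.22-fold). KLF6 passed in 2 of 17 alternatives. These were the filter raised to 5 TPM (limma adjusted p = 0.0403) and median-of-ratios scaling (limma adjusted p = 0.0370). With any 1 library left out KLF6 did not pass (limma adjusted p = 0.0808 to 0.1585). The gene occupies chr10:3775996-3785281 (minus strand).

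KLF4, a factor of monocyte differentiation, measured 5.53, 7.23 and 5.65 TPM in siNC and 4.48, 3.30 and 4.57 TPM in siDUSP6. All siDUSP6 libraries were below all siNC libraries, and both groups were widely spread. The mean differed by -32.9%, the widest relative difference of the 8 tested members, and did not pass the test (log2 fold change -0.48, SE 0.143, limma adjusted p = 0.1307; 95% interval 0.566-fold to 0.906-fold). It did not pass under any of 17 alternatives (adjusted p = 0.1138 to 0.4635), and the log2 fold change ran from -0.57 to -0.29. KLF4 occupies chr9:107484852-107490482 (minus strand).

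KLF2 was barely present, at 0.21, 0.61 and 0.25 TPM in siNC and 0.48, 0.20 and 0.65 TPM in siDUSP6. No direction can be read from these values, which overlapped fully. With no filter on low values the log2 fold change was 0.09 (SE 0.167, limma adjusted p = 0.8692). KLF2 occupies chr19:16324817-16327874 (plus strand).

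Among KLF genes outside the members 9 of 15 were tested, with a median log2 fold change of -0.04. In limma 0 passed in either direction and 0 had an unadjusted p under 0.05, against 3.86% and 19.2% of all genes tested. KLF10, a TGF-beta-inducible gene, was the most abundant of these at 77.9 ± 1.99 and 75.0 ± 1.5 TPM (limma adjusted p = 0.4249). KLF13 measured 45.6 ± 4.31 and 47.1 ± 1.68 TPM, KLF9 34.2 ± 0.785 and 35.4 ± 0.485 TPM, and KLF3 21.2 ± 0.629 and 22.5 ± 0.407 TPM. KLF16 measured 20.8 ± 1.66 and 18.1 ± 1.54 TPM, KLF5 12.8 ± 0.978 and 12.3 ± 0.603 TPM, KLF11 7.19 ± 0.636 and 7.76 ± 0.575 TPM, KLF7 5.66 ± 0.271 and 5.54 ± 1.06 TPM, and KLF12 2.02 ± 0.149 and 1.75 ± 0.181 TPM. Limma adjusted p for these 9 lay between 0.2751 and 0.9093. KLF1, KLF8, KLF14, KLF15, KLF17 and KLF18 were under the filter, the last pair listed at 0 throughout.

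KLF6 held 26.6% of the summed KLF TPM in siNC and 29.6% in siDUSP6, KLF10 24.4% and 22.9%, and KLF4 1.92% and 1.26%. The sum over 18 KLF genes was 319 ± 7.71 and 328 ± 3.24 TPM and overlapped between the groups (exact permutation p = 0.3, adjusted 0.3). The ratio of KLF6 to KLF4 separated the groups, at 15.3, 11.3 and 15.6 in siNC and 22.6, 28.7 and 20.8 in siDUSP6, a log2 difference of 0.77 (exact permutation p = 0.1, adjusted 0.2). The ratios of KLF4 and KLF6 to KLF2 overlapped (exact permutation p = 0.2 and 1.0), as did that of CEBPD to CEBPB (p = 0.2).

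**Figure D2:**
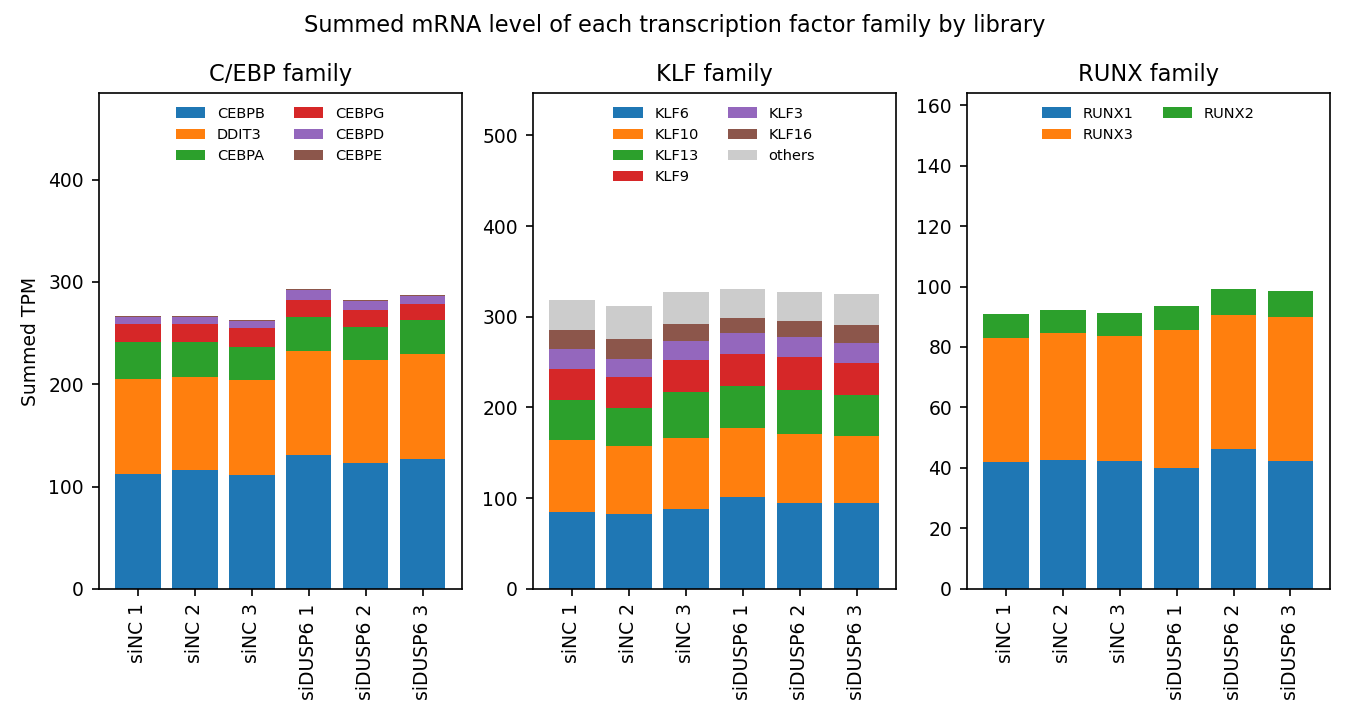
Bars show the summed TPM of the C/EBP (6 genes), KLF (18) and RUNX (3) families in each of the 6 libraries, from 0, divided by gene. The C/EBP and RUNX totals are higher in every siDUSP6 library than in any siNC library, and the KLF totals overlap.

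MAF, which encodes c-Maf, an activator of IL10, measured 8.64, 8.0 and 7.58 TPM in siNC and 7.29, 6.95 and 6.69 TPM in siDUSP6. All siDUSP6 libraries were below all siNC libraries. The mean differed by -13.6% and did not pass the test (log2 fold change -0.18, SE 0.0736, limma adjusted p = 0.2385; adjusted p = 0.2024 to 0.6636 over 17 alternatives). MAF occupies chr16:79585843-79600714 (minus strand).

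The MAF relatives described here were more abundant than MAF where they were tested. MAFF, a small MAF protein with no activation domain of its own, rose from 63.9 ± 1.75 TPM in siNC to 74.9 ± 0.997 TPM in siDUSP6 (log2 fold change 0.23 with an SE of 0.0319, limma adjusted p = 0.01497). Its call was kept without siNC replicate 2 and lost without each of the other 5 libraries (adjusted p = 0.03338 to 0.0664 over the 6 fits). The other small MAF genes MAFG (40.1 ± 1.08 and 40.6 ± 1.25 TPM) and MAFK (25.7 ± 0.786 and 26.4 ± 1.19 TPM) did not pass the test. MAFA and NRL were under the filter. Of these 5 relatives 3 were tested, and 1 rose and 0 fell (3.86% of all genes tested passed), with a median log2 fold change of 0.04.

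**Figure D3:**
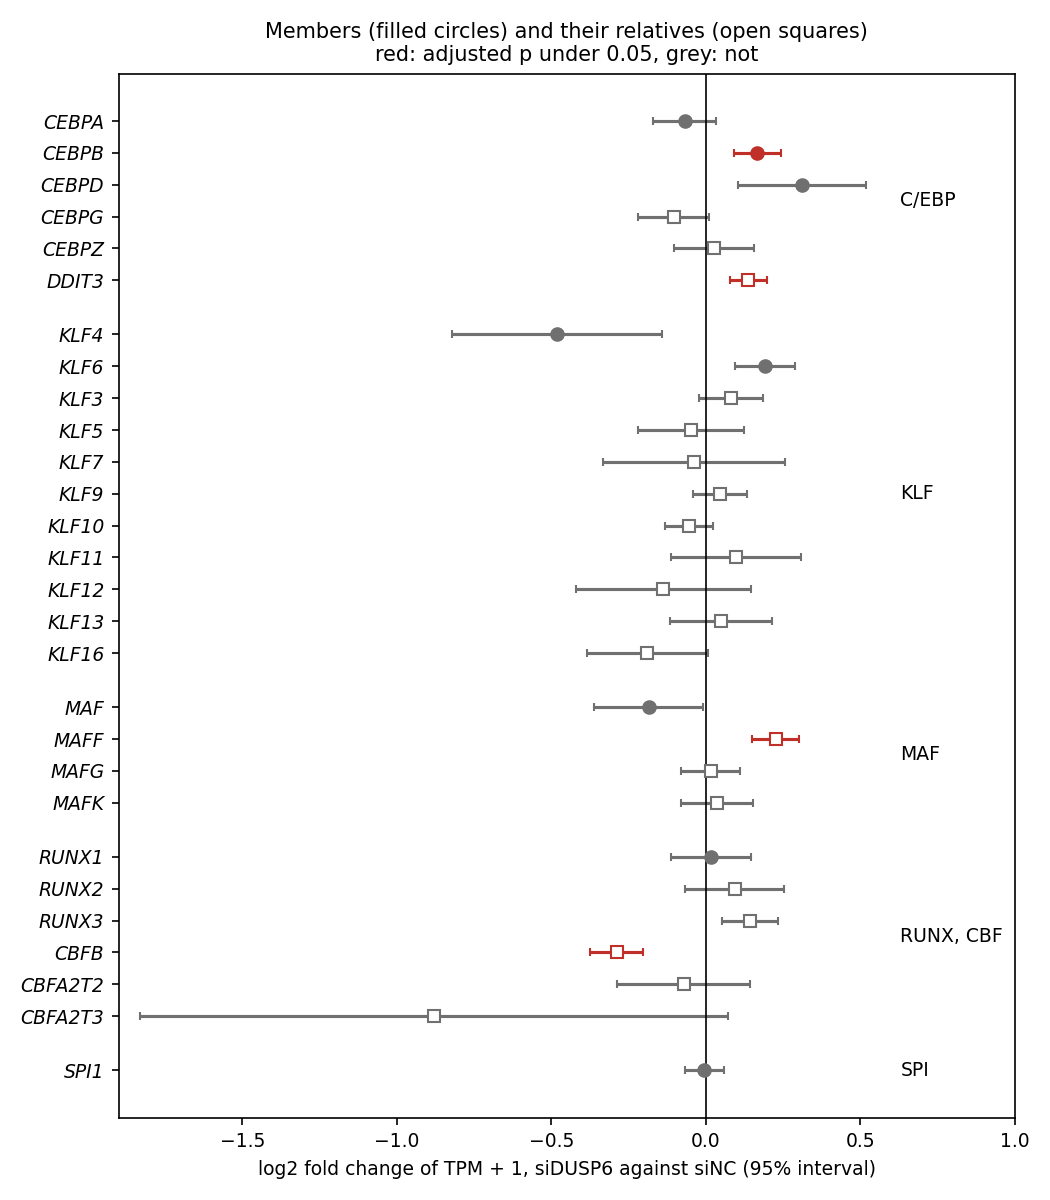
Points give the log2 fold change of TPM + 1, siDUSP6 against siNC, with the 95% interval, for the 8 tested members (filled circles) and 20 tested relatives (open squares), red where the limma adjusted p is under 0.05. CEBPB, DDIT3 and MAFF lie above 0 in red and CBFB below 0 in red, and KLF2 is left out as not tested.

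Over the 5 lists of relatives 20 of 32 genes were tested, with a median log2 fold change of 0.02. In all 2 rose and 1 fell, against 3.86% passing among all genes tested. ATF3 and RUNX3 had the profiles nearest to that of CEBPB among 47 genes averaging 5 TPM or more in these lists and the list of other lineage regulators below. The root mean square difference from CEBPB over the 6 libraries, on log2(TPM + 1) values centred on the siNC mean, was 0.0273 for ATF3 and 0.0344 for RUNX3. This measure picks genes with a like log2 fold change in the same libraries (0.17 for CEBPB, 0.14 for ATF3, 0.14 for RUNX3). RUNX3 did not pass the limma test, and shared regulation was not tested.

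Another list held 41 other regulators of myeloid and blood lineages, mostly transcription factors, with the RNA-binding ZFP36L1 among them. Of these 32 were tested, and 3 rose and 1 fell (3.86% of all genes tested passed), with a median log2 fold change of -0.0023. ATF3, a stress-induced factor that limits Toll-like receptor responses in mouse macrophages, rose from 399.6 ± 7.66 to 442 ± 6.07 TPM (limma adjusted p = 0.01741). IRF5, which drives inflammatory cytokine genes, rose from 29.8 ± 0.452 to 34 ± 0.372 TPM (limma adjusted p = 0.04262). ZEB2, a zinc finger transcriptional repressor, rose from 93.4 ± 1.55 to 103 ± 1.96 TPM (limma adjusted p = 0.04642). ID2, an inhibitor of helix-loop-helix factors, fell from 268 ± 1.3 to 244 ± 4.06 TPM (limma adjusted p = 0.01766). The IRF5 and ZEB2 calls did not outlast the removal of any 1 library (adjusted p = 0.0842 to 0.144), and those of ATF3 and ID2 were kept in the fit without siDUSP6 replicate 2 alone (adjusted p = 0.04579 to 0.07502). IRF8, a partner of PU.1 in monocyte development that is named after its values were seen, measured 6.52, 6.18 and 7.56 TPM in siNC and 4.70, 4.94 and 4.69 TPM in siDUSP6. Its groups did not overlap and it fell just short of the threshold (log2 fold change -0.42, SE 0.0895, limma adjusted p = 0.05733). IRF8 passed in 0 of 17 alternatives. NR1H3, also named after its values were seen, lay the other way without overlap, at 24.6 ± 2.66 TPM in siNC and 31.9 ± 1.51 TPM in siDUSP6. It did not pass either (log2 fold change 0.37, SE 0.0804, limma adjusted p = 0.0616), but passed in 2 of 17 alternatives.

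Genes known as targets of PU.1 and C/EBP factors went both ways. Of 40 listed 37 were tested, and 4 rose and 2 fell (3.86% of all genes tested passed), with a median log2 fold change of 0.0008. CD14, the lipopolysaccharide co-receptor, rose from 29.9 ± 3.26 TPM in siNC to 40.8 ± 1.18 TPM in siDUSP6 (log2 fold change 0.44 with an SE of 0.0790, limma adjusted p = 0.03332). That call was kept without siNC replicate 3 and lost without each of the other 5 libraries (adjusted p = 0.02997 to 0.1107 over the 6 fits). TLR2, a receptor for bacterial lipoproteins, rose from 139 ± 1.24 to 173 ± 4.16 TPM (limma adjusted p = 0.00177). NCF1, a cytosolic subunit of the phagocyte oxidase, rose from 220.5 ± 5.67 to 283 ± 3.48 TPM (limma adjusted p = 0.001214), but is uncertain because it has near-identical pseudogene copies. IL6R, a subunit of the interleukin-6 receptor, rose from 51.5 ± 0.921 to 59.4 ± 2.21 TPM (limma adjusted p = 0.03912), a call that no fit without 1 library kept (adjusted p = 0.0555 to 0.123). ITGB2, the beta chain of leukocyte integrins, fell from 1566 ± 23.7 to 1427 ± 9.55 TPM (limma adjusted p = 0.006479), and CHI3L1, a secreted chitinase-like protein, fell by 6.46% in mean TPM (limma adjusted p = 0.008682). CSF1R, the macrophage colony-stimulating factor receptor and a PU.1 target, measured 305 ± 9.90 and 293 ± 1.44 TPM (limma adjusted p = 0.2861); it is named after its values were seen.

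Of 7 genes known as targets of KLF2 and KLF4 3 were tested, and 2 rose and 0 fell, where 3.86% of all genes tested passed. THBD, which encodes thrombomodulin, an anticoagulant receptor, rose from 115 ± 0.645 TPM in siNC to 128 ± 1.90 TPM in siDUSP6 (log2 fold change 0.15 with an SE of 0.0237, limma adjusted p = 0.02166). CDKN1A, which encodes the cell cycle inhibitor p21, rose from 671 ± 19.8 TPM in siNC to 732 ± 6.85 TPM in siDUSP6 (log2 fold change 0.13 with an SE of 0.0238, limma adjusted p = 0.03944). The THBD call was kept without siDUSP6 replicate 3 and lost without each of the other 5 libraries (adjusted p = 0.04854 to 0.08213 over the 6 fits), and none of the 6 fits kept that of CDKN1A (0.0549 to 0.1245). CDKN1C, the other gene tested, measured 1.21 ± 0.404 and 1.54 ± 0.474 TPM (limma adjusted p = 0.677). ARG1, MRC1, NOS3 and S1PR1 were under the filter and were not tested. At these low levels NOS3 was lower without overlap, at 0.52 to 1.26 TPM in siNC and 0.15 to 0.30 TPM in siDUSP6. MRC1 was higher without overlap, at 0.06 to 0.08 and 0.09 to 0.12 TPM. CDKN1C, NOS3 and MRC1 are named after their values were seen.

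**Figure D4:**
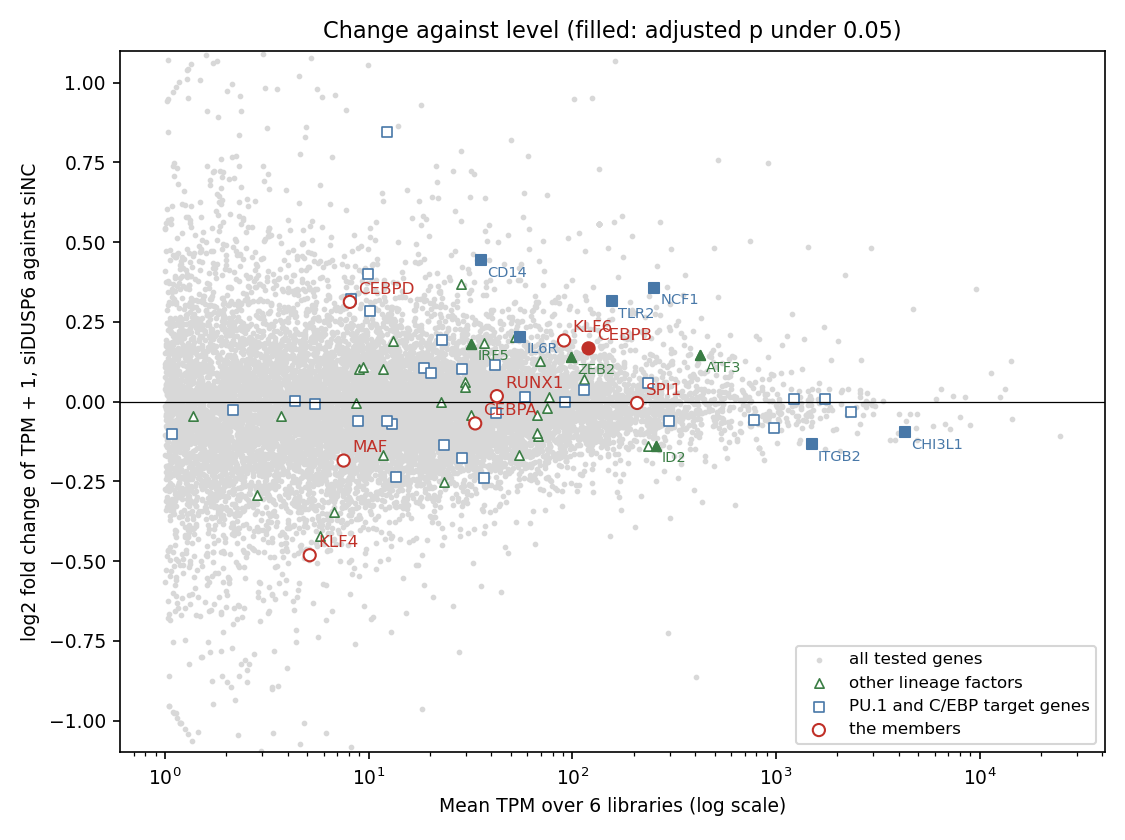
Each point is 1 gene, its mean TPM over the 6 libraries on a log axis against its log2 fold change of TPM + 1 (siDUSP6 against siNC); grey points are all 14602 tested genes, of which 121 lie outside the plotted range, and filled coloured points passed the limma test. The 8 tested members (red) lie between -0.48 for KLF4 and 0.31 for CEBPD, and CEBPB is the filled one.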

How the data were processed

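Libraries were poly(A) RNA, prepared with a stranded kit, per the labels' protocols. Tools named in the submitters' processing notes are fastp, HISAT2 and StringTie, with GRCh38 as the build; no version, annotation or source of the TPM is given in the sources used here. The authors deposited TPM per gene and library, to 2 decimals; 21 rows with no gene ID were left out. TPM are shares of a library, so a change in abundant transcripts shifts the others.

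Groups came from the sample titles. The 14602 genes averaging at least 1 TPM were log2-transformed with a pseudocount of 1 and fitted by group alone, with a variance trend (limma 3.58.1, R 4.3.3). P-values were two-sided and adjusted over all genes tested (Benjamini-Hochberg), with calls at 0.05. Fold changes on this scale understate changes of low genes. The fit was also run on simulated data as a check of the code. Those data were independent normal values with the fit's own variances, so they do not test the calls made here. Ratios and family sums were compared by exact permutation tests, adjusted over the 6 ratios or 3 sums (Python 3.11.15, scipy 1.17.1). Coordinates are from GENCODE release 29.

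The members, gene lists and tests were chosen with earlier results of these data known. Named were the members, DUSP6, every tested relative, up to 8 called genes of each further list, and the genes nearest in profile to a called member; exceptions are stated. Some items, and the sum of a family that needs one, are not reported here, and counts, medians and likeness leave them out. The 17 alternatives changed the pseudocount (0.1 or 5), the filter (none, or 5 TPM), the scaling (median of ratios, quantiles, or TPM recomputed without mitochondrial genes and the top 50) or the variance trend (none, or robust), added the replicate number as a block, or left out each library. Leaving out siDUSP6 replicates 2 and 3 together, with the lone library assumed to vary like the others, was added after the data were seen.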

Additional observations from a re-analysis of the deposited data

How the results depend on the processing

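All genes gave 346 higher and 218 lower calls (61.3% higher). The counts were 101 and 20 with the replicate number as a block, 106 and 18 without the variance trend, 44 and 5 without siDUSP6 replicates 2 and 3 together, and 165 to 192 and 57 to 79 with 1 library left out; 114 were lower with no filter, and 74.5% of calls were higher after median-of-ratios scaling (441 and 151). Same-numbered libraries did not deviate together (correlations 0.0252, -0.0365 and 0.0480), and siNC replicate 1 correlated best with siDUSP6 replicate 2. The labels state no pairing, and the main fit did not take the numbers as pairs. Fewer samples or degrees of freedom remain in the fits with the block or with libraries left out. The cause of the changed counts was not tested.

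Members called higher numbered 2 over genes with at least 5 TPM and after median-of-ratios scaling, where KLF6 passed at 0.19 and 0.22, and 0 with no filter, without the variance trend, with the replicate block, with any 1 library left out, and without siDUSP6 replicates 2 and 3 together. CEBPB kept a log2 fold change of 0.17 without a filter (adjusted p = 0.0828), without the variance trend (0.140) and with the replicate block (0.148), was 0.146 to 0.189 with 1 library left out, and 0.21 without siDUSP6 replicates 2 and 3. The cause was not tested. No member was called lower under any alternative run.

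SPI1 turned to 0.0209 after median-of-ratios scaling, to 0.0211 without siDUSP6 replicates 2 and 3, and ran from -0.0177 to 0.0135 with 1 library left out. RUNX1 turned to -0.0766 without siDUSP6 replicates 2 and 3 and ran from -0.0369 to 0.0641. With 1 library left out the log2 ratio of KLF6 to KLF2 differed by -0.62 to 0.24, and the log2 fold changes ran from -0.0132 to 0.0618 for CEBPZ, -0.17 to 0.0465 for KLF7, -0.0055 to 0.12 for KLF13, -0.0084 to 0.0369 for MAFG and -0.13 to 0.00014 for CBFA2T2. CEBPA, CEBPD, MAF and KLF4 kept their direction and side of the threshold in all 17 alternatives, and so did the direction of the other 5 ratios and all 3 family sums in each alternative run for them.

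Of the 5 higher and 2 lower related and other transcription factors, 3 were higher with no filter, 0 and 0 passed without the variance trend, with the replicate block, and without siDUSP6 replicates 2 and 3, and 0 to 1 and 1 to 2 with 1 library left out. Of the 6 higher and 2 lower target genes, 3 and 1 passed with no filter, 2 and 0 without the variance trend and with the replicate block, 0 and 0 without siDUSP6 replicates 2 and 3, 2 to 3 and 2 with 1 library left out, and 1 was lower without mitochondrial and top genes. Depth is unknown, so the precision of KLF2 and other low genes could not be set.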
